A study of Homo sapiens with 6 samples.

Results

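The genes described here build the major histocompatibility complex (MHC) class I molecule and load it with peptide. Members were the rows of the deposited gene table whose symbol was HLA-B, HLA-C, HLA-E, B2M, TAP1, TAP2, TAPBP, ERAP1 or NLRC5, which are 9 of 60669 rows. Of these 9, 8 had a mean of at least 10 normalized counts over the 6 libraries and entered the test with 15637 genes in all, and TAP2 was listed at 0 in every library. The study depleted ADAMTS12, a secreted metalloprotease, in LX-2, a human line of activated hepatic stellate cells, the scar-forming cells of the liver. The cells, whose genotype is given as WT, received 1 siRNA against ADAMTS12 (siADAMTS12, 3 libraries) or a commercial negative control siRNA (siCTL, 3 libraries), both carried in with Lipofectamine RNAiMAX, and were analysed at 48 h. The labels do not tie the 3 libraries of a group to separate cultures. Their spread, on which every p-value here rests, may therefore be technical.

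A class I molecule is a heavy chain, such as HLA-B, HLA-C or HLA-E, held together with the light chain beta-2 microglobulin, the product of B2M. The proteasome cuts cytosolic proteins into peptides, the transporter formed by TAP1 and TAP2 pumps these into the endoplasmic reticulum, and tapasin (TAPBP) bridges the transporter to empty class I molecules together with the chaperones calreticulin and PDIA3. The aminopeptidase ERAP1 trims peptides to the length that fits the groove, and NLRC5 is a transactivator that, with the RFX complex, acts at class I gene promoters. Nearly all nucleated cells display class I molecules, and interferons raise the genes of this pathway.

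With siADAMTS12, HLA-E and ERAP1 were lower, and the other 6 detected members did not pass the test. HLA-E, the heavy chain that presents signal peptides of other class I chains to natural killer cells, averaged 2289 ± 116 normalized counts in siADAMTS12 libraries and 2991 ± 189 in siCTL libraries (SD, n = 3 each), a change of -23.5%. ERAP1 averaged 2026 ± 139 in siADAMTS12 libraries and 2825 ± 62.4 in siCTL libraries, a change of -28.3%. No member was called higher by limma, and 1, NLRC5, was higher at an unadjusted p under 0.05 (0.0277). With the replicate number as a block, limma called 3 members lower, HLA-B being added (adjusted p = 0.00288), and 1 higher, NLRC5 (adjusted p = 0.0296). The 2 lower members of 8 stand beside a background of 15.5% of all 15637 genes called lower, 11.5% called higher and 27% called in either direction, so the share of members called (2 of 8) lay near that of the whole table. The median log2 fold change of the 8 members was -0.14, and that of all genes tested was 0.005. These are bulk values, so fewer cells of a type and less RNA per cell cannot be told apart.

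The libraries fitted their labels. ADAMTS12 stood at 4083, 3449 and 3687 normalized counts in siADAMTS12 replicates 1, 2 and 3, against 13709, 12235 and 13423 in the siCTL replicates, which left 28.5% of the transcript. The deposited columns summed to 30.7 to 31.4 M in siADAMTS12 libraries and 33.6 to 34.1 M in siCTL libraries. All 10 stellate cell and fibroblast markers were kept, and they summed to 341054 to 365627 in siADAMTS12 libraries and 432847 to 473072 in siCTL libraries, with PDGFRB, VIM, TAGLN and THY1 called lower. Of 10 leukocyte markers, CD3E and NKG7 were at 0 in every library, and the 10 together summed to 126 to 165 in siADAMTS12 libraries and 136 to 165 in siCTL libraries. The 7 hepatocyte markers summed to 23 to 29 in siADAMTS12 libraries and 18 to 20 in siCTL libraries, and ALB never passed 1. Of 5 endothelial markers CLEC4M was at 0 throughout, and the 5 summed to 65 to 79 in siADAMTS12 libraries and 139 to 157 in siCTL libraries, mostly KDR, which was called lower. The 4 cholangiocyte markers, none of them at 0 throughout, summed to 1733 to 2071 in siADAMTS12 libraries and 1874 to 2232 in siCTL libraries, mostly SOX9. The part of these marker shifts in the results on the members was not tested. All sequences and gene positions below are on GRCh38, the build named in the submitters' processing notes.

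The siRNA is shown because its guide strand can pair with other transcripts through positions 2 to 8, the seed. Capitals mark the seed in the guide and the matching 7 bases in the sense strand, whose sequence is given in the labels.
siADAMTS12 sense strand: gccaaaguuugGAGGGAAa
siADAMTS12 guide strand: uUUCCCUCcaaacuuuggc
The 7-mer GAGGGAA, the complement of the seed, occurred in the 3' UTR of 15.6% of 12606 tested genes and in that of 0 of the 9 members (GENCODE 29, 1 principal transcript per gene). The 6-mer AGGGAA, which pairs with guide positions 2 to 7, occurred in 41.4% of the 12606 genes and in 3 members. These were HLA-E, B2M and TAP2, and the first pair, which were detected, are shown with the 6-mer in capitals. The site in HLA-E lies at chr6:30493789-30493794, plus strand, 1043 bases after the stop codon, and that in B2M at chr15:44718196-44718201, plus strand, 604 bases after it.
HLA-E 3' UTR: gggcccccaccAGGGAAatgtctagtgt
B2M 3' UTR: tattttcaaacAGGGAAacagtcttcaa
ERAP1, which was lower, held neither match in a 3' UTR of 2390 bases. A match is a description of the sequence, and whether the siRNA acts on these transcripts was not tested.

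Of the 3 heavy chains, HLA-E passed the test as lower, and HLA-B lay near the threshold in the same direction. HLA-E (ENSG00000204592, chromosome 6, 30489467 to 30494205, plus strand) stood at 2411, 2277 and 2179 normalized counts in siADAMTS12 replicates 1, 2 and 3, against 3203, 2926 and 2843 in siCTL replicates 1, 2 and 3. All 3 siADAMTS12 libraries lay below all 3 siCTL libraries. Its log2 fold change was -0.38 ± 0.068 (SE) on the log2(value + 1) scale, with adjusted p = 0.00148 (limma, Benjamini-Hochberg over all genes tested). An exact 2-sided permutation test of 3 against 3 libraries gave p = 0.1, the smallest it can give.

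HLA-B (ENSG00000234745, chromosome 6, 31269491 to 31357188, minus strand), a classical heavy chain that presents peptides to CD8 T cells, lay just outside the threshold. Its level was 7073, 6537 and 5954 in siADAMTS12 replicates 1, 2 and 3, against 8397, 8234 and 6823 in the siCTL replicates. The groups overlapped, because siADAMTS12 replicate 1 lay above siCTL replicate 3. HLA-B had a log2 fold change of -0.26 ± 0.089 (limma adjusted p = 0.0512). Same-numbered libraries deviated together, and with the replicate number as a block HLA-B passed as lower (adjusted p = 0.00288). It also passed without siADAMTS12 replicate 1 (log2 fold change -0.32, adjusted p = 0.0306), without siCTL replicate 3 (-0.35, adjusted p = 0.0135), with a pseudocount of 8 (0.0498) and with a minimum mean of 50 (0.0476). It was at -0.11 after quantile normalization and at -0.13 with columns divided by their totals, and its adjusted p over 14 alternatives ran from 0.00288 to 0.436.

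HLA-C (ENSG00000204525, chromosome 6, 31268749 to 31272130, minus strand), the classical heavy chain that is also a main ligand of killer cell immunoglobulin-like receptors, had far lower values than HLA-B and HLA-E. It stood at 269, 259 and 217 normalized counts in siADAMTS12 replicates 1, 2 and 3, against 252, 337 and 240 in siCTL replicates 1, 2 and 3. The groups overlapped, and siCTL replicate 2 was the highest library. Its fitted log2 fold change was -0.14 ± 0.14 (limma adjusted p = 0.501) and 0.0078 without siCTL replicate 2. HLA-B and HLA-C coding sequences were 92.5% identical over 1086 aligned bases, and those of HLA-E and HLA-B were 86.8% identical over 1072. Of the 50-base stretches in the principal transcripts, 6.79% of those in HLA-C, 5.13% in HLA-E and 2.54% in HLA-B also occurred in a transcript of another gene. These genes are also highly polymorphic between people and cell lines, so how the reads of this line's own alleles were counted was not tested, and their levels are uncertain.

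The light chain gene B2M (ENSG00000166710, chromosome 15, 44711487 to 44718877, plus strand) was the most abundant member. It stood at 20859, 20128 and 18023 normalized counts in siADAMTS12 replicates 1, 2 and 3, against 23058, 21203 and 20570 in siCTL replicates 1, 2 and 3. The groups overlapped, with siADAMTS12 replicate 3 the lowest library and siCTL replicate 1 the highest. The log2 fold change of -0.14 ± 0.075 did not pass (limma adjusted p = 0.203, and 0.0502 with the replicate block), and its sign turned after quantile normalization (0.08). Within each library, HLA-E stood at 0.116, 0.113 and 0.121 of B2M in siADAMTS12 replicates 1, 2 and 3, against 0.139, 0.138 and 0.138 in siCTL replicates 1, 2 and 3. The ranges of this ratio, which no scaling of columns can move, did not overlap (log2 difference -0.25, exact 2-sided permutation p = 0.1, the smallest possible). HLA-B stood at 0.331 ± 0.00721 of B2M in siADAMTS12 libraries and 0.361 ± 0.0284 in siCTL libraries (SD, n = 3 each), and these ranges overlapped (exact permutation p = 0.2). The ratio of HLA-E to HLA-B overlapped as well, at 0.352 ± 0.0129 in siADAMTS12 libraries and 0.384 ± 0.0308 in siCTL libraries (exact permutation p = 0.2), so a larger change of HLA-E than of HLA-B was not shown. These ratios were chosen after the values had been seen.

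**Figure D1:**
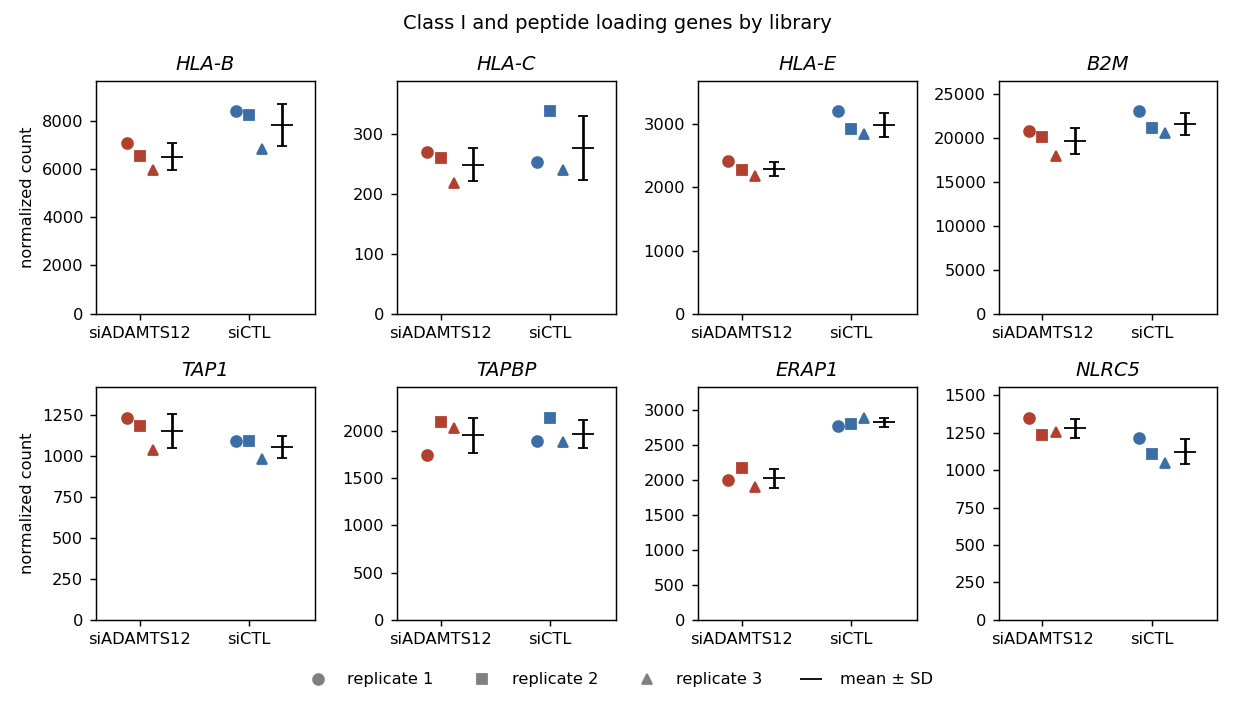
Normalized counts (vertical axes, each starting at 0) of the 8 detected members in the 3 siADAMTS12 libraries (left, red) and the 3 siCTL libraries (right, blue). Marker shape gives the replicate number, and black bars give the mean ± SD. HLA-E and ERAP1 are lower in every siADAMTS12 library, NLRC5 is higher in every siADAMTS12 library without passing the test, and the other members overlap.

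The peptide transporter and its bridge did not pass the test. TAP1 (ENSG00000168394, chromosome 6, 32845209 to 32853978, minus strand) stood at 1236, 1183 and 1039 normalized counts in siADAMTS12 replicates 1, 2 and 3, against 1095, 1095 and 980 in siCTL replicates 1, 2 and 3. The siADAMTS12 mean was the higher one, and the groups overlapped through siADAMTS12 replicate 3. TAP1 had a log2 fold change of 0.12 ± 0.083 (limma adjusted p = 0.302). It passed as higher with columns divided by their totals, at 0.25 (adjusted p = 0.0407), and its adjusted p over 14 alternatives ran from 0.0407 to 0.635.

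TAPBP (ENSG00000231925, chromosome 6, 33299694 to 33314387, minus strand) stood at 1744, 2091 and 2030 in siADAMTS12 replicates 1, 2 and 3, against 1893, 2140 and 1877 in siCTL replicates 1, 2 and 3. The 6 values were interleaved. The log2 fold change was -0.013 ± 0.083 (limma adjusted p = 0.935), the smallest of the 8 members.

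TAP2 (ENSG00000204267, chromosome 6, 32821833 to 32838780, minus strand) was listed at 0 in all 6 libraries, while its partner TAP1 was not. In the GENCODE 29 annotation, 80.5% of the bases of its principal transcript also lie in exons of the overlapping gene AL669918.1 on the same strand, and AL669918.1 was listed at 0 in all 6 libraries too. For the other 8 members the share was 0% to 2.15%. Neither the annotation nor the rule for counting shared bases is stated, and what part the overlap has in the zeros was not tested. The value of 0 is therefore not read as absence of the transcript.

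ERAP1 (ENSG00000164307, chromosome 5, 96760810 to 96808100, minus strand), the trimming peptidase, had the largest change among the 8 members tested. It stood at 1997, 2177 and 1904 normalized counts in siADAMTS12 replicates 1, 2 and 3, against 2776, 2803 and 2895 in siCTL replicates 1, 2 and 3. Every siADAMTS12 library lay below every siCTL library. On the other strand, 6.94% of the exonic bases of ERAP1 overlap exons of CAST and AC008906.1 (17.8% for HLA-B and 9.49% for TAP1, with antisense genes), and no source used here says whether counting used strand. The log2 fold change was -0.48 ± 0.065 (limma adjusted p = 0.000254, exact permutation p = 0.1). Its neighbour ERAP2, a second trimming aminopeptidase, averaged 2998 ± 162 in siADAMTS12 libraries and 3171 ± 132 in siCTL libraries, with a log2 fold change of -0.081 ± 0.064 that did not pass (limma adjusted p = 0.381). The ratio of ERAP1 to ERAP2 was 0.662, 0.691 and 0.674 in siADAMTS12 replicates 1, 2 and 3, against 0.868, 0.926 and 0.881 in siCTL replicates 1, 2 and 3. This ratio, chosen after the values had been seen, did not overlap between groups (log2 difference -0.40, exact 2-sided permutation p = 0.1, the smallest possible).

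NLRC5 (ENSG00000140853, chromosome 16, 56989485 to 57083531, plus strand), the class I transactivator, stood at 1351, 1236 and 1251 normalized counts in siADAMTS12 replicates 1, 2 and 3, against 1212, 1109 and 1047 in siCTL replicates 1, 2 and 3. All siADAMTS12 libraries lay above all siCTL libraries. The log2 fold change was 0.19 ± 0.075 and did not pass (limma adjusted p = 0.0844). It passed as higher with the replicate block (adjusted p = 0.0296), without siCTL replicate 1 (0.25, adjusted p = 0.049) and with columns divided by their totals (0.31, adjusted p = 0.0105). Over 14 alternatives its adjusted p ran from 0.0105 to 0.255. Groups did not overlap in 2 of 8 members on the lower side and in 1 on the higher side, beside 21.7% and 19.2% of all genes tested.

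**Figure D2:**
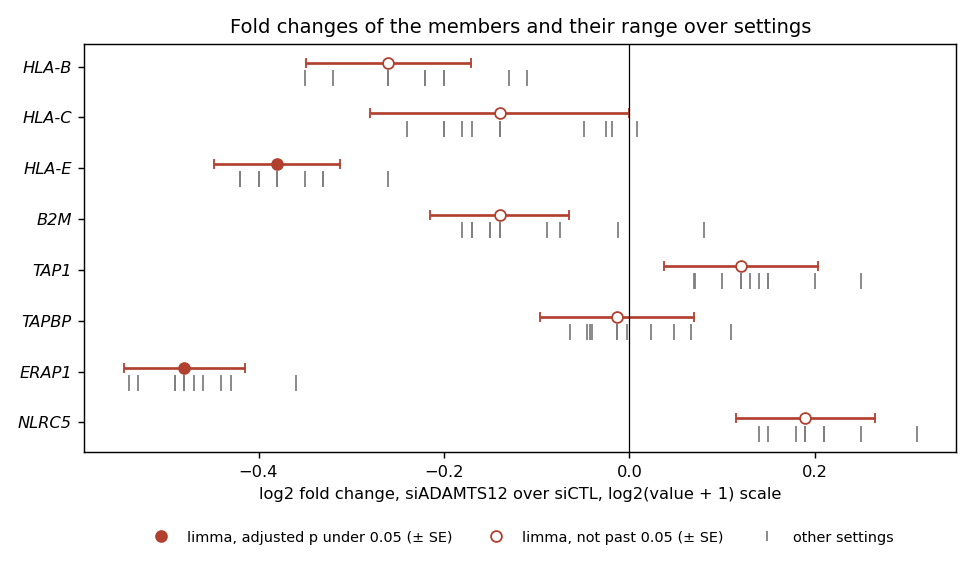
Log2 fold change of each detected member, siADAMTS12 over siCTL, on the log2(value + 1) scale. Circles with bars give the limma estimate ± SE, filled where the adjusted p is under 0.05, and grey ticks give the same estimate under 14 other settings. HLA-E and ERAP1 stay below 0 and past the threshold in all 14, and the ticks of HLA-C, B2M and TAPBP cross 0.

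Levels of the members differed widely when set per kilobase of exonic length. B2M led with 3236 ± 242 normalized counts per kb in siADAMTS12 libraries and 3555 ± 213 in siCTL libraries, above 98.1% and 98% of 15528 tested genes with a length. HLA-B followed at 2137 ± 183 per kb in siADAMTS12 libraries and 2562 ± 284 in siCTL libraries. HLA-E stood at 769 ± 39.1 and TAPBP at 387 ± 36.6 per kb in siADAMTS12 libraries, against 1005 ± 63.4 and 390 ± 29.2 in siCTL libraries. ERAP1 was at 255 ± 17.5 and TAP1 at 240 ± 21.2 per kb in siADAMTS12 libraries, where their ranges overlapped, against 356 ± 7.85 and 220 ± 13.8 in siCTL libraries, where they did not. HLA-C and NLRC5 were lowest, at 99.1 ± 11 and 103 ± 5.05 per kb in siADAMTS12 libraries and 110 ± 21.1 and 90.6 ± 6.73 in siCTL libraries, with ranges that overlapped in both groups. Per kb of the principal transcript in place of all exons, the order in siCTL libraries was the same, with B2M at 12675 ± 758, HLA-B at 5054 ± 559 and HLA-C at 180 ± 34.4. In siADAMTS12 libraries ERAP1 and TAP1 changed places on that scale, with ERAP1 at 369 ± 25.3 and TAP1 at 390 ± 34.5. HLA-E and TAPBP changed places there too, with HLA-E at 880 ± 44.8 and TAPBP at 1035 ± 98.1.

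Part of the spread within groups was shared between members. Over all genes tested, same-numbered libraries also deviated together (correlations of 0.37, 0.13 and 0.13). The share of all genes with the orders below was not computed, so they are not shown to be particular to the members. Within siADAMTS12, replicate 1 was the highest library for 6 of the 8 detected members and replicate 3 the lowest for 6. Within siCTL, replicate 3 was the lowest for 7 of the 8, and replicate 1 was the highest or tied for HLA-B, HLA-E, B2M, NLRC5 and TAP1. The 19 interferon-stimulated genes kept had another order. Their mean log2(value + 1) was 9.06, 9.67 and 9.12 in siADAMTS12 replicates 1, 2 and 3, against 9.13, 9.62 and 9.08 in siCTL replicates 1, 2 and 3, so that the library numbered 2 was high in both groups. TAPBP was also highest in the library numbered 2 of each group, ERAP1 in that of siADAMTS12 and HLA-C in that of siCTL. Without both libraries numbered 2, HLA-E was at -0.40 (limma adjusted p = 0.0163) and ERAP1 at -0.54 (adjusted p = 0.00171), and no other member passed.

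**Figure D3:**
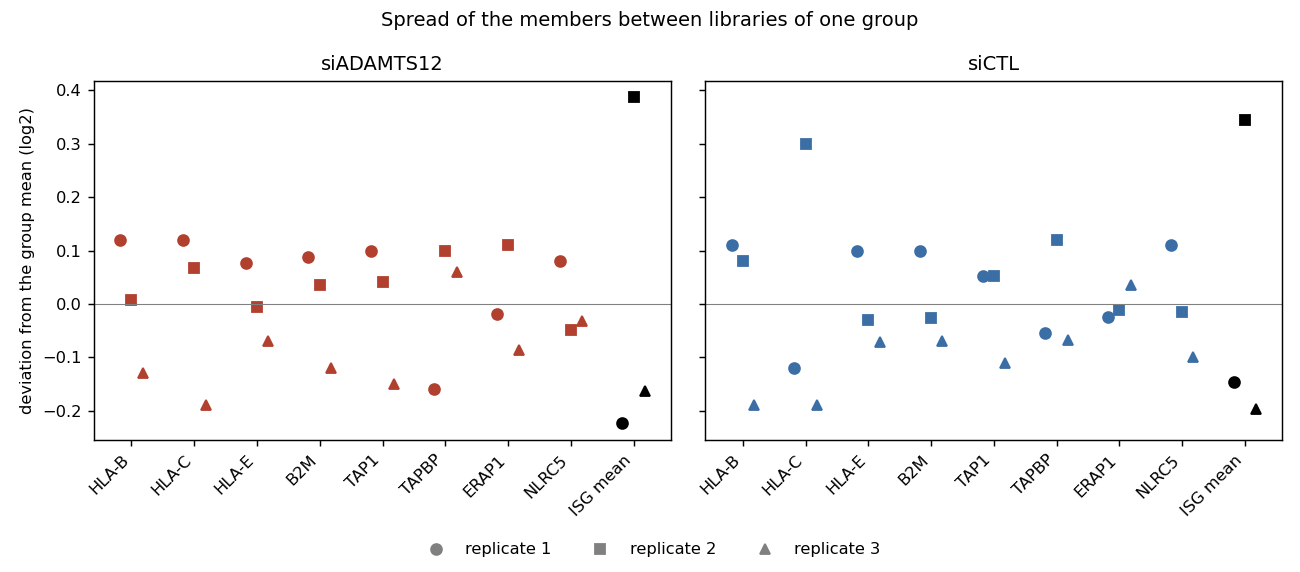
Deviation of each library from its group mean on the log2(value + 1) scale, for the 8 detected members and for the mean of 19 interferon-stimulated genes (ISG mean, black), in siADAMTS12 (left) and siCTL (right) libraries. Marker shape gives the replicate number. The interferon-stimulated genes stand high in replicate 2 of both groups, while HLA-B, HLA-E, B2M and TAP1 stand low in replicate 3 of both groups.

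The genes whose pattern over the 6 libraries was most like that of B2M were IPO13, HADHB and KIAA0319L, with Pearson r of 0.997, 0.987 and 0.985 among 11333 genes with a mean of at least 100. These are descriptions over 6 libraries that share 1 scaling, with no test. IPO13 itself moved little, with 1815, 1803 and 1759 normalized counts in siADAMTS12 replicates 1, 2 and 3, against 1852, 1816 and 1807 in siCTL replicates 1, 2 and 3. Among the members HLA-B ranked 150 by this measure (r = 0.91) and HLA-E 375 (r = 0.85), and NLRC5 (-0.16) and TAPBP (-0.29) had negative values.

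Promoters of the members are shown because class I genes share a promoter module, the X2 and Y boxes bound by CREB-family factors and NF-Y, and because interferon and NF-kappaB act through nearby elements. RefSeq windows on GRCh38.p14 run from 250 bases before to 50 bases after each listed start of a gene. They were found for 7 of the 9 members, HLA-E and NLRC5 not among them. TAP1 had another window at chr6:32852712-32853011 and ERAP1 another at chr5:96814096-96814395, both on the minus strand and not shown. Both strands were searched for CCAAT (the Y box core) and TGACG (an X2 core). They were also searched for a core of the interferon-stimulated response element (ISRE), GAAA repeated with 2 bases of any kind between, and for a kappaB-type site, GGG and TTCCC with 2 bases of any kind between. Capitals mark every match, and adjoining ISRE cores overlap. The windows of HLA-B and B2M are given for the 2 chains of the class I molecule, ERAP1 for a member that fell, and TAP1 for the transporter. HLA-B lies at chr6:31357130-31357429 (minus strand), B2M at chr15:44711267-44711566 (plus strand), ERAP1 at chr5:96807896-96808195 (minus strand) and TAP1 at chr6:32853655-32853954 (minus strand).
HLA-B: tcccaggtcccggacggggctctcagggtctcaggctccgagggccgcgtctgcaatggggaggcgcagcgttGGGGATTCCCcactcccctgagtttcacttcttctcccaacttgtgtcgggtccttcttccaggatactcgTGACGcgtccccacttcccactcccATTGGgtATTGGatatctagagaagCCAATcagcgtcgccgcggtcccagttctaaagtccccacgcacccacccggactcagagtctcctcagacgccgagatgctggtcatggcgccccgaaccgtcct
B2M: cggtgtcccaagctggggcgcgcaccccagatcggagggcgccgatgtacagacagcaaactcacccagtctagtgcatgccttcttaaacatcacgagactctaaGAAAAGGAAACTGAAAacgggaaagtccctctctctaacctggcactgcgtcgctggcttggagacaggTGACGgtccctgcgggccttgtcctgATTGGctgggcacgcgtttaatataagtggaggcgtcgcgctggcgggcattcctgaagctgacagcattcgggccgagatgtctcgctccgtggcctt
ERAP1: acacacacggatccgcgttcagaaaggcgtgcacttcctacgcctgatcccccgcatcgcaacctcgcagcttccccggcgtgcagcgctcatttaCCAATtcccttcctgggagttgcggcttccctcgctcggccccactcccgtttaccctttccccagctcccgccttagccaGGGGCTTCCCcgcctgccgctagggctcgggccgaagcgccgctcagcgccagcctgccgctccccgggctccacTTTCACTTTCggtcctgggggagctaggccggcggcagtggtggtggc
TAP1: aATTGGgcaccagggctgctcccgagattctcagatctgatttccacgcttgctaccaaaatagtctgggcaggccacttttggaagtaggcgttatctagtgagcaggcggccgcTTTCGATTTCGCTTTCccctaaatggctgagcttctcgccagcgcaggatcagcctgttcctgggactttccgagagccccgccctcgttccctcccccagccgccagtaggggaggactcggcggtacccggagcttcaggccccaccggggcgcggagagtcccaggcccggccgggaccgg
The windows of TAP1 and ERAP1 that are not shown held no match of any kind. Members are counted here by any of their windows, while the background counts single windows. Only the exact patterns were counted, so variants of these elements are missed. A window without a match is therefore not shown to lack the element. The ISRE core stood in windows of 5 of the 7 members (B2M, TAP1, TAP2, TAPBP and ERAP1), beside 3.57% of 35116 promoter windows. The kappaB-type site stood in 2 (HLA-B and ERAP1), beside 2.17%. The X2 core stood in 4 (HLA-B, HLA-C, B2M and TAP2), beside 24.6%, and the Y box core in 5 (these without TAP2, with TAP1 and ERAP1), beside 34.6%. Members with the ISRE core were found lower (ERAP1) and not past the test (B2M, TAP1 and TAPBP), and a match is a description of the letters, not of binding.

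Of 10 genes for chaperones and quality control of peptide loading, 6 were called lower and 0 higher with siADAMTS12, beside 15.5% of all genes tested called lower. The list's median log2 fold change was -0.44, and it was -0.23 after quantile normalization and -0.31 with columns divided by their totals, with 5 called lower in each. TAPBPL, GANAB, PRKCSH and BCAP31 did not pass. The 6 lower genes were PDIA3, the oxidoreductase paired with tapasin, at -0.80 ± 0.07 (20532 ± 722 normalized counts in siADAMTS12 libraries and 35798 ± 2379 in siCTL libraries), calreticulin (CALR, -0.50), UGGT1, which re-tags misfolded glycoproteins (-0.49), PDIA6 (-0.46), HSPA5 (-0.49) and calnexin (CANX, -0.41). All 6 are general folding factors as well. TAPBPL, a tapasin relative that edits peptides, was at -0.033 ± 0.13 (limma adjusted p = 0.888).

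Of 18 proteasome and peptidase genes, 4 were lower and 1 higher, beside 15.5% and 11.5% of all genes tested. The higher gene was the insulin-degrading peptidase IDE (0.24, limma adjusted p = 0.04). IDE did not pass without siADAMTS12 replicate 1, siCTL replicate 1 or siCTL replicate 2, with no filter on low values or in limma without the trend. The interferon-inducible proteasome subunits stood at log2 fold changes of 0.11 (PSMB8), -0.048 (PSMB9) and -0.16 (PSMB10), with limma adjusted p of 0.387, 0.808 and 0.468. The 4 lower genes were the endosomal trimming aminopeptidase LNPEP (1535 ± 59 normalized counts in siADAMTS12 libraries and 2133 ± 188 in siCTL libraries), the metallopeptidase NRDC (-0.41), the signal peptide peptidase HM13 (-0.40) and the proteasome activator PSME3 (-0.28). HM13 cuts the signal peptides from which the peptides displayed on HLA-E derive. It stood at 5902, 5431 and 6276 in siADAMTS12 replicates 1, 2 and 3, against 7922, 7226 and 8077 in siCTL replicates 1, 2 and 3, with no overlap (limma adjusted p = 0.00153).

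Of 17 detected factors at class I promoters, 5 were lower and 1 higher, beside 15.5% and 11.5% of all genes tested. IRF9 was listed at 0 in every library. The 3 RFX subunits, partners of NLRC5, did not move together. RFXAP rose to 455, 461 and 442 normalized counts in siADAMTS12 replicates 1, 2 and 3, against 245, 217 and 301 in siCTL replicates 1, 2 and 3 (log2 fold change 0.84 ± 0.12, limma adjusted p = 0.000336). RFX5 was lower at -0.32 ± 0.064 (adjusted p = 0.0036) and RFXANK at -0.28 ± 0.064 (adjusted p = 0.00813), and both were named after their values had been seen. The other lower genes were SUZ12, a subunit of the repressive PRC2 complex (-0.76 ± 0.067, adjusted p = 1.02e-05), the interferon-induced factor IRF1 (-0.46) and CREB1 (-0.44).

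Of 9 detected interferon receptor and kinase genes, 5 were lower and 1 higher, beside 15.5% and 11.5% of all genes tested. The type I receptor subunits IFNAR2 (190 ± 12.7 normalized counts in siADAMTS12 libraries and 311 ± 29.2 in siCTL libraries) and IFNAR1 (-0.30) were lower, as were the feedback inhibitor SOCS3 (-0.72), JAK2 (-0.40) and JAK1 (-0.28). SOCS1, another feedback inhibitor, was called higher at 0.76 ± 0.23 (limma adjusted p = 0.0331), with 251, 251 and 399 in siADAMTS12 replicates 1, 2 and 3, against 140, 254 and 145 in siCTL replicates 1, 2 and 3, which overlap. SOCS1 did not pass without siADAMTS12 replicate 3, siCTL replicate 1 or siCTL replicate 3, with no filter on low values or in limma without the trend, and with columns divided by their totals the list had 3 lower and 3 higher. The receptor subunit IFNGR1 was at 0.17 (adjusted p = 0.0983). IFNG and IFNB1 were listed at 0. Of 19 interferon-stimulated genes 1 was lower, IFIT2 at -0.40 ± 0.12, and 0 were higher, beside 15.5% and 11.5% of all genes tested. The groups of IFIT2 overlapped, with siADAMTS12 replicate 2 at 704 and siCTL replicate 1 at 673. There were 3 lower and 1 higher with the replicate block, and 2 lower without both libraries numbered 2. The count of lower genes was 3 without siADAMTS12 replicate 2 and 0 without siADAMTS12 replicate 1, siADAMTS12 replicate 3, siCTL replicate 2 or siCTL replicate 3. It was also 0 with no filter on low values, with columns divided by their totals and in limma without the trend. The count of higher genes was 1 with columns divided by their totals and 1 without siCTL replicate 2.

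Genes for surface turnover of class I moved both ways, with 3 of 10 lower and 3 higher, beside 15.5% and 11.5% of all genes tested. The ubiquitin ligase WWP2, which acts with SUSD6 and TMEM127 to send class I molecules to lysosomes, averaged 2001 ± 44.2 normalized counts in siADAMTS12 libraries and 1301 ± 62.6 in siCTL libraries (log2 fold change 0.62 ± 0.064, limma adjusted p = 3.06e-05). The membrane-bound ligase MARCHF9 was also higher (0.36), and so was its relative MARCHF4 (0.25). The WWP2 partner TMEM127 was lower (-0.27), together with the cargo receptor TMED10 (-0.53) and the ligase SYVN1 (-0.19), and with columns divided by their totals 1 of the 10 was lower. Among 10 detected class I-like genes outside the members 3 were lower and 0 higher, beside the same 15.5% and 11.5%. These were FCGRT, the neonatal Fc receptor that also pairs with B2M (-0.32), and the NKG2D ligands ULBP1 (-0.46) and RAET1G (-0.48), and 0 of the 3 passed without both libraries numbered 2 or with columns divided by their totals. The list had 1 gene called lower without siADAMTS12 replicate 3, without siCTL replicate 2 and with no filter on low values. HLA-F, a nonclassical heavy chain, was at 171, 167 and 161 in siADAMTS12 replicates 1, 2 and 3, against 142, 159 and 114 in siCTL replicates 1, 2 and 3 (0.28 ± 0.14, limma adjusted p = 0.174). Of 6 detected class II genes none passed, beside 27% of all genes tested called in either direction. CTSS was nearest (-0.20, limma adjusted p = 0.158), and HLA-DRA, HLA-DQA1 and HLA-DQB1 were listed at 0.

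Several of these pathway genes held the guide 7-mer in the 3' UTR. It was present in UGGT1, LNPEP, SUZ12, IRF1, CREB1, RFX5, SOCS3, TMEM127 and TMED10, which were lower, and in MARCHF9, which was higher. Over all genes searched, the 7-mer was in 30.7% of those called lower, 10.9% of those called higher and 12.5% of those not called. These shares take no account of 3' UTR length. PDIA3, RFXANK, IFNAR1, IFNAR2 and WWP2 held the 6-mer alone. Neither match was found in FCGRT, ULBP1, RAET1G, CALR, PDIA6, NRDC, HM13, JAK1 and IFIT2, which were lower. The same held for RFXAP and SOCS1, which were higher, and for CTSS, which did not pass. PSME3 was not among the genes searched, and the outcomes for CANX, HSPA5, JAK2, SYVN1, MARCHF4 and IDE are not given here. What part these matches have in the changes was not tested.

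**Figure D4:**
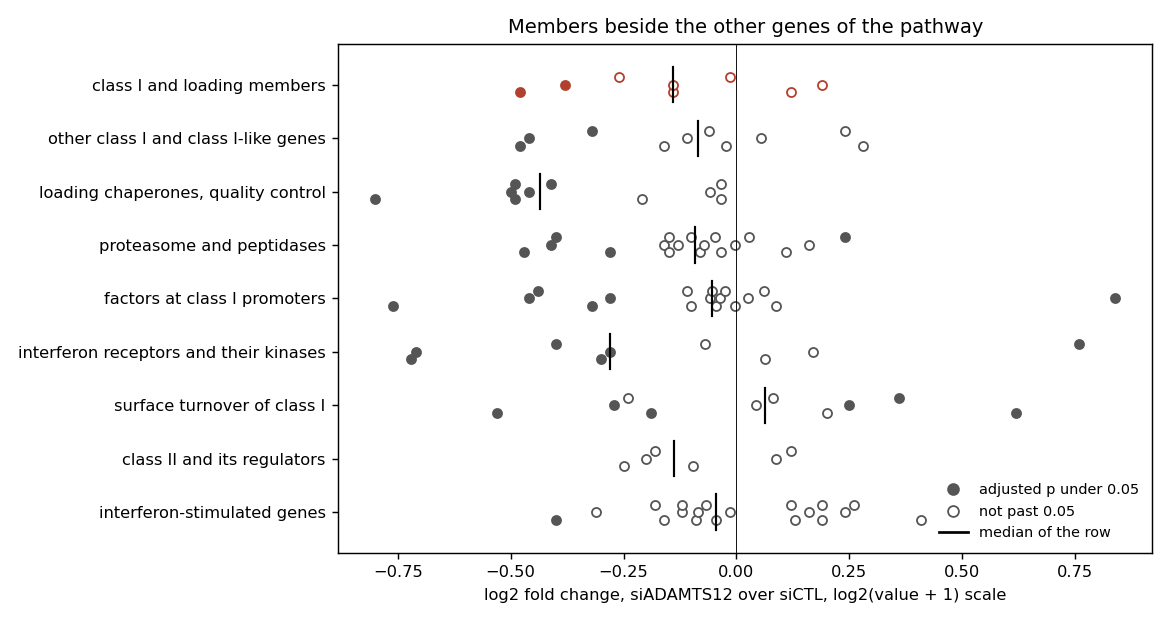
Log2 fold changes, siADAMTS12 over siCTL, on the log2(value + 1) scale, of the detected members (top row, red) and of the other pathway genes by list (grey). Filled circles have an adjusted p under 0.05, and black bars give each row's median. The loading chaperones have the lowest median, -0.44, against -0.14 for the members.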

How the data were processed

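Poly(A) RNA of LX-2 cells was sequenced in 6 libraries, and the deposited table holds 1 column per library and 1 row per gene. The deposited values are a score, the authors' normalized counts written as whole numbers, made, per the submitters' processing notes, with STAR, HTSeq and DESeq2 (no versions listed) on GRCh38. The annotation used, with strand setting and rounding, is not given in the sources used here. Because the values are not raw counts, the reads behind each value are unknown here, and no count model or counting interval was used.

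Only genes whose 6 values averaged 10 or more were tested. Values were taken as log2(value + 1), which understates the change of low genes. All tested genes entered 1 limma fit (version 3.58.1, R 4.3.3) with group as the only term and an intensity trend, and p-values were adjusted by Benjamini-Hochberg over all of them, with a threshold of 0.05. The fit was tested on simulated data. Single ratios were compared with exact 2-sided permutation tests. Deviations from the group means correlated across genes at 0.37, 0.13 and 0.13 for libraries numbered 1, 2 and 3, against -0.19 to 0.063 for different numbers. A second fit, planned among the alternatives, added replicate number as a blocking term.

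Gene models, lengths and 3' UTRs came from GENCODE 29 and promoter windows from RefSeq. The 3' UTR was that of the transcript with the best APPRIS rank, then the basic set, then the longest 3' UTR. Shared 50-base stretches were sought in all GENCODE 29 transcripts. Python 3.11.15, pandas 2.3.3, scipy 1.17.1, biopython 1.88 and matplotlib 3.10.9 were used. From each pathway list the text names up to 4 called genes with the smallest adjusted p, or the gene with the smallest p where none passed, and other genes named from the lists were chosen after their values were seen. For patterns like B2M, 3 genes were taken by Pearson correlation. The members and lists were chosen with earlier results of these data known.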

Additional observations from a re-analysis of the deposited data

How the results depend on the processing

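HLA-E and ERAP1 were lower and past the threshold in the limma fit and in all 14 alternatives (log2 fold changes of -0.42 to -0.26 and -0.54 to -0.36). Dividing each column by its total moved the median of all genes to 0.13 (log2), against 0.005, and the calls to 1546 lower and 3868 higher, against 2424 and 1798, so that 28.6% of called genes were lower, against 57.4%. The members called lower stayed at 2 there, and 2 were called higher (TAP1 and NLRC5). With the replicate block, 3 members were lower (HLA-B added) and 1 was higher (NLRC5). Leaving out 1 library at a time gave 2 to 3 members lower and 0 to 1 higher, 1873 to 2368 genes lower and 1230 to 1623 higher. Signs turned for B2M (0.08) and TAPBP (0.023) after quantile normalization, for TAPBP with column totals (0.11), without siADAMTS12 replicate 1 (0.067) and without siCTL replicate 2 (0.048), and for HLA-C without siCTL replicate 2 (0.0078). Leaving out 1 library gave -0.064 to 0.067 for TAPBP and -0.24 to 0.0078 for HLA-C, and the cause was not tested. Leaving out both libraries numbered 2 was chosen after seeing the data. Of 224 counts for the pathway lists under alternatives, 186 lay within 1.5 times. Read depth is unknown from these values, so counting error could not be set beside the spread of 3 libraries a group.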
